A study of Danio rerio with 18 samples.

Results

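Pigment gene expression was examined in whole zebrafish embryos through pmela, slc24a5 and gart, 3 genes of 2646 with a current symbol on a 1-colour NimbleGen array. Each was read by 1 RefSeq feature, making 3 of 37105 features: NM_001045330 for pmela, NM_001030280 for slc24a5 and NM_131617 for gart. The 3 genes were chosen on measured values of these arrays, namely their differences between MES embryos and controls at 24 hours post fertilization (hpf) in an earlier analysis that named them among the genes of a pigment list. That comparison is therefore given below as a description without a test, as are the comparisons whose group means reuse its arrays. The tested comparisons use those arrays only through a spread pooled over all groups.

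The embryos were exposed from 6 hpf to 50 µg/mL of gold nanoparticles carrying MES, to 10 µg/mL of gold nanoparticles carrying TMAT, or to vehicle, and were collected at 48 or 24 hpf, which gives 6 groups of 3 arrays. The particles had a core of 1.5 nm, and their ligands are mercaptoethanesulfonate (MES, negatively charged) and trimethylammoniumethanethiol (TMAT, positively charged). Embryos of every group were dechorionated at 4 hpf, kept at 37 °C according to the labels, and pooled by 40 to a sample. No source used here says whether the pools of a group came from separate clutches, so the p-values measure the spread between these pools, which may be technical, and since the doses differ, ligand and dose cannot be told apart between the particles.

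Zebrafish pigment cells arise mainly from the neural crest, as black melanophores, yellow xanthophores and reflective iridophores, and the retinal pigment epithelium of the eye makes melanin as well. Melanin is laid down in melanosomes on amyloid fibrils built from the Pmel protein, which pmela encodes. The gene slc24a5 encodes a potassium-dependent sodium/calcium exchanger of the melanosome pathway, and its loss gives the pale golden mutant. The trifunctional enzyme encoded by gart acts in de novo purine synthesis, a pathway that every dividing cell uses and that also supplies guanine to iridophores and precursors of pteridine pigment to xanthophores. In zebrafish its loss disturbs both pigmentation and growth of the eye.

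The arrays held 37105 features, and their median RMA intensity (the authors' summary of the probes of a feature, on a linear scale) lay between 1809 and 2197. A set of 3342 random control probes, used here as the background, gave 78.8 to 96.4 in the 12 exposed arrays and 82.8 to 169 in the 6 control arrays. Among controls of 48 hpf the second array stood apart, and among controls of 24 hpf the first, with a mean correlation across features with the other arrays of their age of 0.881 and 0.885, against 0.940 to 0.969 in the other 16 arrays. Both arrays bear on the results for pmela, which are given with and without them.

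The melanosome gene pmela had the highest level in exposed embryos of 48 hpf and the most variable level in controls. At 48 hpf its intensity was 8389, 5805 and 7011 in MES embryos (arrays 1 to 3), 5472, 8424 and 6367 in TMAT embryos, and 1243, 459 and 5371 in controls. All 6 exposed arrays lay above the 3 control arrays, but control array 3 fell just below the lowest exposed array, while control arrays 1 and 2 were far lower. Against the random probes of the same array, pmela stood at 65.7 to 106 times in the exposed arrays and at 11.7, 2.72 and 64.9 times in control arrays 1, 2 and 3. At 24 hpf it measured 2343, 2328 and 4269 in MES embryos, 1971, 2906 and 2419 in TMAT embryos, and 90.0, 1260 and 1873 in controls. Again no exposed array overlapped the controls, with control array 3 close to the lowest exposed array. In control array 1 at 24 hpf the reading was 0.904 times that of the random probes, so that pmela was not above background there.

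**Figure D1:**
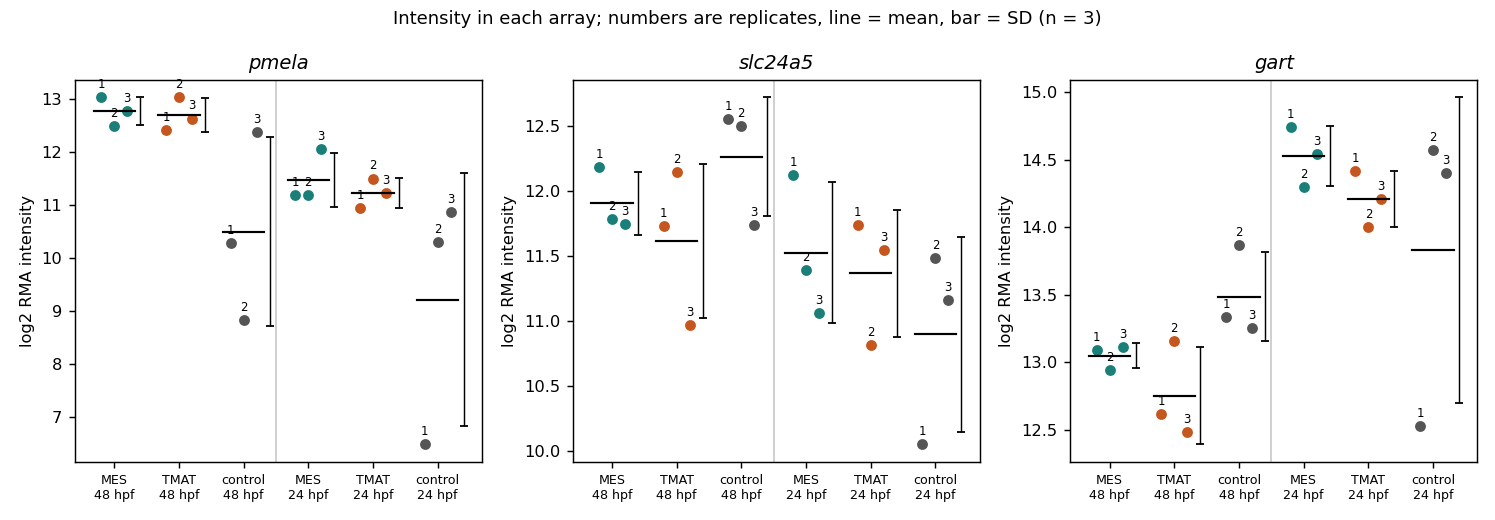
RMA intensity (log2, vertical axis) of pmela, slc24a5 and gart in each of the 18 arrays, by group (horizontal axis). Points are arrays with their replicate number, the line is the group mean and the bar its SD (n = 3). The pmela points of control array 1 at 24 hpf and of control arrays 1 and 2 at 48 hpf sit far below all others of their age, and among the 24 hpf arrays gart is far below the others in control array 1 alone.

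The exchanger gene slc24a5 had a narrower range. At 48 hpf its intensity was 4653, 3534 and 3433 in MES embryos, 3402, 4534 and 2007 in TMAT embryos, and 6027, 5804 and 3412 in controls. Control arrays 1 and 2, the arrays in which pmela was low, held the highest slc24a5 values of this age, and the groups overlapped through control array 3. At 24 hpf the values were 4462, 2687 and 2141 in MES embryos, 3426, 1798 and 2991 in TMAT embryos, and 1059, 2860 and 2290 in controls. The groups overlapped at this age too, and control array 1 was the lowest of the 9 arrays.

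The purine enzyme gene gart was highest at 24 hpf. At 48 hpf it measured 8701, 7860 and 8849 in MES embryos, 6264, 9152 and 5715 in TMAT embryos, and 10326, 14909 and 9784 in controls. Every exposed array lay below every control array at this age. At 24 hpf it measured 27330, 20081 and 23867 in MES embryos, 21843, 16407 and 18946 in TMAT embryos, and 5908, 24285 and 21577 in controls. Controls 2 and 3 fell within the exposed range, and control array 1 was the lowest of the 9 arrays of its age.

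In order of mean log2 intensity, pmela ran through MES at 48 hpf (12.77 ± 0.27, SD, n = 3 here and below), TMAT at 48 hpf (12.70 ± 0.32), MES at 24 hpf (11.48 ± 0.50), TMAT at 24 hpf (11.23 ± 0.28), controls at 48 hpf (10.50 ± 1.79) and controls at 24 hpf (9.22 ± 2.38, which includes the reading at background). The single step in this order that exceeded the SDs on either side was that between TMAT embryos at 48 hpf and MES embryos at 24 hpf, 1.22. The order for slc24a5 began with controls at 48 hpf (12.27 ± 0.46) and continued with MES (11.91 ± 0.24) and TMAT embryos (11.62 ± 0.60) of that age. MES (11.53 ± 0.54), TMAT (11.37 ± 0.49) and control embryos (10.90 ± 0.75) of 24 hpf followed, and no step between neighbours exceeded their SDs. For gart the order was MES (14.52 ± 0.22), TMAT (14.21 ± 0.21) and control (13.83 ± 1.13) at 24 hpf, then control (13.48 ± 0.33), MES (13.05 ± 0.09) and TMAT (12.75 ± 0.36) at 48 hpf. The steps from MES to TMAT embryos at 24 hpf (0.32) and from controls to MES embryos at 48 hpf (0.44) exceeded the SDs on either side.

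The 48 hpf comparison of exposed embryos with controls sets each particle, with its core, ligand and dose together, against vehicle at the later age. It is not the comparison for which the genes were named, although earlier results of all arrays were known at that choice. None of the 3 genes passed the test for either particle (limma, adjusted over all features, threshold 0.05), where 5.76% of all features passed for MES embryos and 0% for TMAT embryos (limma, with 7519 features at an unadjusted p under 0.05 for TMAT). These counts turned on single arrays. The 2138 features of the MES comparison became 6260 without control array 3, 2 without control array 2 and 0 without control array 1, MES array 1 or MES array 2 of that age. They became 3374 without control array 1 and 1408 without MES array 2 of 24 hpf, and 0 when the fit held MES embryos and controls of 48 hpf alone. The 0 of the TMAT comparison became 6310 without control array 3, 884 without control array 2 at 24 hpf and 221 without MES array 3 at 48 hpf. The log2 intensity of pmela averaged 12.77 ± 0.27 in MES embryos and 10.50 ± 1.79 in controls, a difference of 2.27 ± 0.90 (SE, limma adjusted p = 0.142). For TMAT embryos the difference was 2.19 ± 0.90 (SE, limma adjusted p = 0.194). Both comparisons share the 3 control arrays, so the likeness of these values is no independent repeat. In pools of whole embryos, a different number of pigment cells and a different amount of RNA per cell cannot be told apart.

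The size of the pmela difference at 48 hpf turned on single control arrays. Without control array 2 it was 1.44 for MES and 1.36 for TMAT embryos. Without control array 3 it was 3.21 and 3.14, with limma adjusted p of 0.0242 and 0.0271. In the fit without control array 3, 6260 (MES) and 6310 (TMAT) of 37105 features passed. That array had the highest mean correlation with its age among the controls of 48 hpf (0.959), and leaving it out kept the outlying array 2. In the fit, control array 1 of 24 hpf enters this comparison through the pooled spread alone. Without it the MES difference of 2.27 had an adjusted p of 0.0318 and the TMAT difference of 2.19 one of 0.0689 (limma). Without the least correlated control array of both ages together the differences were 1.44 ± 0.47 and 1.36 ± 0.47 (SE, limma adjusted p = 0.104 and 0.246). The lack of overlap was met, in the higher direction, by 10.3% of all features for MES embryos and by 7.76% for TMAT embryos.

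The differences of the other genes at 48 hpf ran the other way and were smaller. For slc24a5 they were −0.36 ± 0.41 in MES and −0.65 ± 0.41 in TMAT embryos (SE, limma adjusted p = 0.632 and 0.376). For gart they were −0.44 ± 0.40 and −0.73 ± 0.40 (SE, limma adjusted p = 0.537 and 0.306). The arrays of gart did not overlap, which in the lower direction held for 20.2% of all features for MES and 15.9% for TMAT embryos. The median over all features was −0.14 and −0.15, so that the distance of slc24a5 and gart from the typical feature is smaller by that amount, and that of pmela larger.

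**Figure D2:**
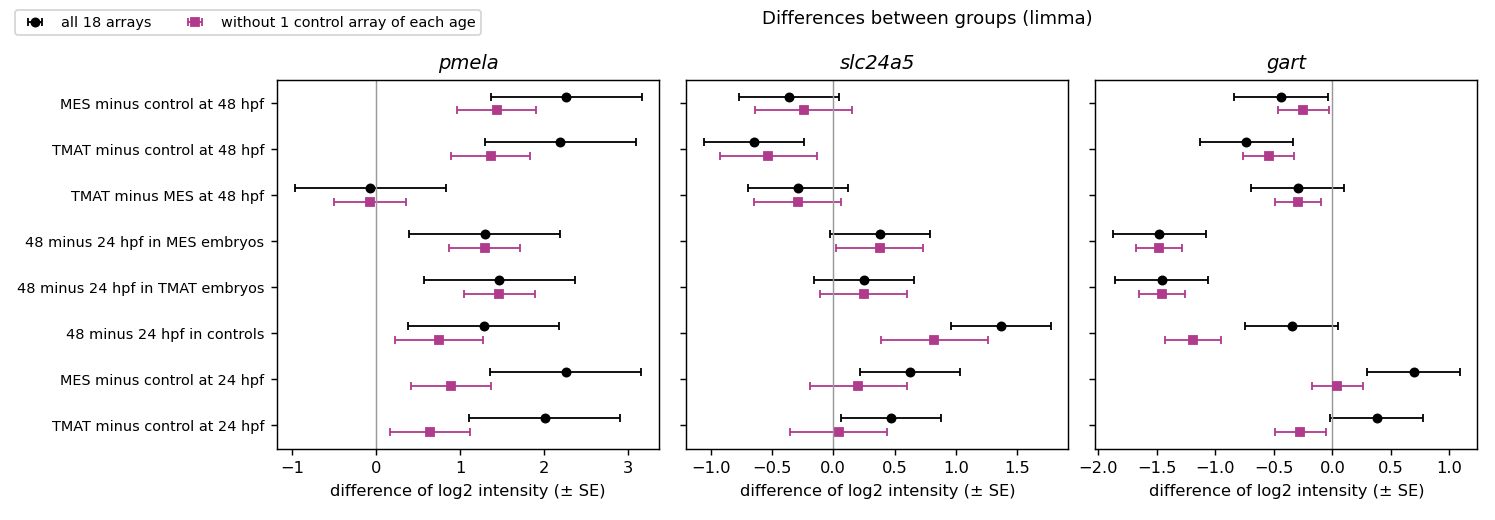
Differences of log2 intensity (horizontal axis, ± SE from limma) of pmela, slc24a5 and gart in each comparison (vertical axis), from all 18 arrays (circles) and without the least correlated control array of each age (squares). The pmela difference of MES from control embryos at 24 hpf is 2.26 with all arrays and 0.89 without control array 1, and the gart difference between the ages in controls is −0.35 with all arrays and −1.19 without both control arrays.

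TMAT and MES embryos were compared directly at 48 hpf, at their different doses, and 0% of features passed (limma, with 590 at an unadjusted p under 0.05). The difference (TMAT minus MES) was −0.07 for pmela, with a 95% interval of −1.98 to 1.84. It was −0.29 for slc24a5 (−1.16 to 0.58) and −0.29 for gart (−1.14 to 0.55), with limma adjusted p of 1.00 for all 3 genes. The intervals are wide, and that of pmela comes from a spread pooled over the 6 groups, which the control arrays widen. When the fit held MES and TMAT embryos of 48 hpf alone, the pmela difference was −0.07 ± 0.22 (SE, limma adjusted p = 0.973). The particles are not shown to act alike on these genes.

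Between the ages, gart fell in TMAT embryos. The 2 group means of this comparison share no array with that for which the genes were named. Its SE and p-value do use those arrays, through the spread pooled over the 6 groups. Earlier results of all arrays were also known when the genes were chosen. The mean log2 intensity of gart was 12.75 ± 0.36 at 48 hpf and 14.21 ± 0.21 at 24 hpf (SD, n = 3 each). The difference was −1.46 ± 0.40 (SE, limma adjusted p = 0.0192) or 2.75-fold. This call was 1 of 3 genes, against 15.5% of all features called and 7.55% called lower. It was lost without TMAT array 1 or 3 at 24 hpf (limma adjusted p = 0.0652 and 0.0560) and without TMAT array 1 or 3 at 48 hpf (0.0726 and 0.0765), with differences between −1.66 and −1.32 over all arrays left out in turn. The call was kept when the fit held TMAT embryos alone (limma adjusted p = 0.00675). Without the least correlated control array of each age it was kept too (limma adjusted p = 0.000106). No array of 48 hpf overlapped with 24 hpf, as for 20.1% of all features in the lower direction.

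The other genes did not pass between the ages in TMAT embryos. The pmela difference was 1.47 ± 0.90 (SE, limma adjusted p = 0.338), and its arrays at 48 hpf all lay above those at 24 hpf, as for 16.1% of all features. Its SE comes from a spread pooled over the 6 groups, which the control arrays widen for this gene. When the fit held TMAT embryos alone the same difference had a limma adjusted p of 0.00678, and without the least correlated control array of each age it had 0.0213. For slc24a5 the difference was 0.25 ± 0.41 (SE, limma adjusted p = 0.771), and its sign turned without TMAT array 2 of either age, to −0.03 at 24 hpf and −0.02 at 48 hpf.

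In MES embryos and in controls, where the 24 hpf arrays had a part in the choice, the changes between the ages are descriptions. For gart the difference was −1.48 ± 0.40 (SE) in MES embryos, without overlap (29.1% of all features in this direction), and −0.35 ± 0.40 in controls, with overlap. Without control array 1 at 24 hpf the gart difference in controls was −0.998, and without control array 2 at 24 hpf it was 0.02. For pmela it was 1.29 ± 0.90 in MES embryos, without overlap (26.4% of all features), and 1.28 ± 0.90 in controls, which came to −0.08 without control array 1 at 24 hpf and to 0.75 ± 0.52 without both outlying control arrays. For slc24a5 it was 0.38 ± 0.41 in MES embryos and 1.37 ± 0.41 in controls, where no array of 48 hpf overlapped with 24 hpf (16.7% of all features). Without both outlying arrays the control value of slc24a5 was 0.83 ± 0.43.

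At 24 hpf, the comparison by which the genes were chosen, the pmela difference from controls was 2.26 ± 0.90 (SE) in MES embryos and 2.01 ± 0.90 in TMAT embryos. Both values rest in part on a reading at background, since pmela was above the random probes in 2 of the 3 controls. The values of all exposed arrays were above all controls, which held for 1.66% of features with MES and for 1.99% with TMAT particles. Without control array 1 the differences were 0.89 and 0.64. For slc24a5 they were 0.63 ± 0.41 and 0.47 ± 0.41, and without the least correlated control arrays 0.21 ± 0.40 and 0.05 ± 0.40. For gart they were 0.69 ± 0.40 and 0.38 ± 0.40, against 0.04 and −0.27 without control array 1. All 3 genes lay nearer to controls once that array was left out.

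The readings of control array 1 at 24 hpf were low for all 3 genes. Compared with the median of the other 8 arrays of that age, pmela was at least 23.5-fold lower there, a bound taken against the random probes of that array because pmela itself was not above them. In the same array gart was 3.67-fold lower, as low as 7.53% of features, and slc24a5 2.62-fold lower, as low as 12% of them. At 48 hpf control array 2 had pmela 13.3-fold lower than the median of the other 8 arrays (0.493% of features), and control array 1 had it 4.89-fold lower (1.25%). In these arrays slc24a5 was 1.67-fold and 1.73-fold higher than that median, as high as 27.9% and 10.1% of features. There gart was 1.70-fold and 1.18-fold higher, as high as 26.7% and 41.3% of features. The intensity of random probes in the outlying arrays was 99.5 (control array 1, 24 hpf) and 169 (control array 2, 48 hpf), and its part in the pmela values was not tested. The pmela feature summarised 3 probes, against a median of 8 over all features (5.61% of features had 3 or fewer), 9 for slc24a5 and 7 for gart.

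**Figure D3:**
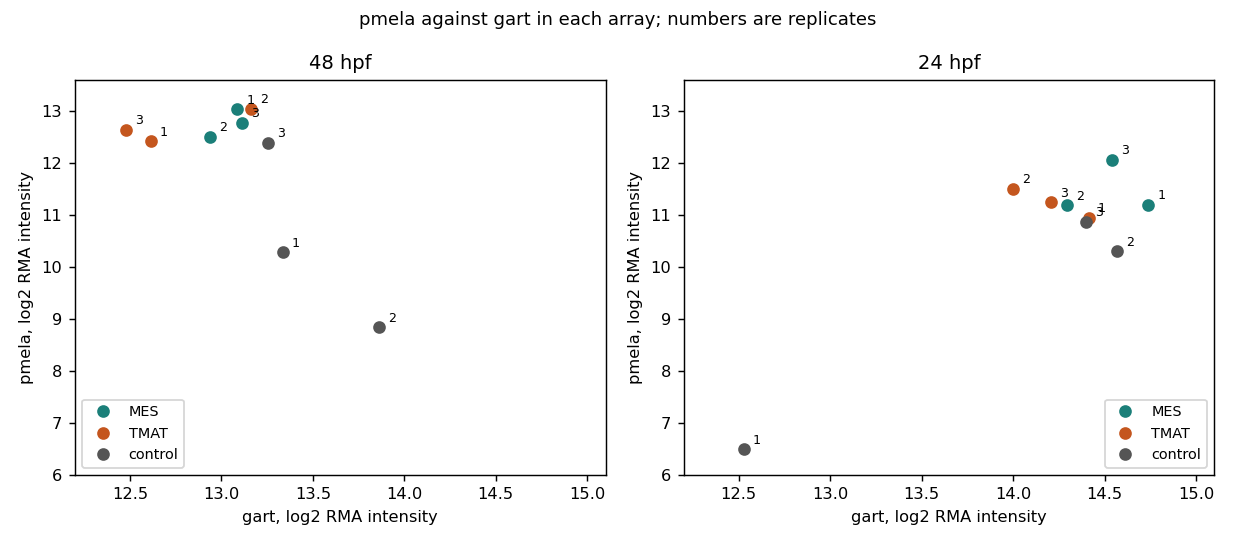
The log2 RMA intensity of pmela (vertical axis) against that of gart (horizontal axis) in the 9 arrays of 48 hpf (left) and the 9 arrays of 24 hpf (right), with replicate numbers. At 48 hpf the controls with less pmela have more gart, and at 24 hpf control array 1 is low in both genes.

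The positive correlations of pmela at 24 hpf turned negative without control array 1, whereas those of slc24a5 with gart were positive at both ages with and without the outlying controls. Pearson's r of pmela with gart was −0.72 over the 9 arrays of 48 hpf and 0.89 over the 9 arrays of 24 hpf, and that of pmela with slc24a5 was −0.60 and 0.66. For slc24a5 with gart it was 0.81 at 48 hpf and 0.86 at 24 hpf. Without the least correlated control of each age, 8 arrays remained per age, and r at 48 and 24 hpf was −0.34 and −0.20 for pmela with gart, −0.47 and −0.37 for pmela with slc24a5, and 0.79 and 0.64 for slc24a5 with gart. Over all 18 arrays pmela with gart gave −0.11, and over the 16 without those controls −0.71. Across the ages slc24a5 with gart gave 0.08 and −0.23 over the same sets, and pmela with slc24a5 0.33 and 0.04. These values describe arrays that share groups, normalization and outlying controls.

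Among the melanosome genes measured here, the others had smaller differences from controls than pmela at 48 hpf. Of 29 symbols listed for melanosomes and melanin, 5 were measured. Besides pmela and slc24a5 these were dct, the melanin synthesis enzyme dopachrome tautomerase, trpm1a, a cation channel gene of melanophores and retina, and gpr143, a receptor of the melanosome membrane. At 48 hpf dct lay between 41738 and 50370 in MES, between 39724 and 44140 in TMAT and between 36302 and 41778 in control embryos. Its difference was 0.21 ± 0.22 for MES and 0.08 ± 0.22 for TMAT embryos (SE, limma adjusted p = 0.610 and 0.865). The values of trpm1a (−0.55 for MES and −0.42 for TMAT) and gpr143 (−0.44 and −0.54) were negative for both particles. Without control array 3 trpm1a passed for MES embryos (limma adjusted p = 0.0391), as did 6260 of 37105 features. With all arrays none of the 5 passed, and their medians of −0.36 (MES) and −0.42 (TMAT) stood beside −0.14 and −0.15 over all features.

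Genes of the pigment cell lineages had negative differences in exposed embryos of 48 hpf, as did the median over all features, and none passed. All 5 measured regulators and receptors had negative values for both particles. Their medians were −0.41 for MES and −0.34 for TMAT embryos, against −0.14 and −0.15 over all features. The 5 genes were the transcription factor genes tfap2e (−0.72 and −0.79), pax7a (−0.79 and −0.64) and mitfb (−0.12 and −0.34) and the receptor genes csf1ra (−0.35 and −0.26), which xanthophores need, and erbb3b (−0.41 and −0.26). Of these genes erbb3b and mitfb were dim at 48 hpf, at 1.23 to 3.72 and 1.86 to 3.17 times the random probes of the same array, and the sizes of their differences are uncertain for that reason. For TMAT embryos tfap2e passed without control array 3 (limma adjusted p = 0.0416), as did 6310 of 37105 features. From the xanthophore list spra, the sepiapterin reductase gene of pteridine synthesis, was at −0.80 ± 0.25 for MES and −0.72 ± 0.25 for TMAT embryos (SE, limma adjusted p = 0.0708 and 0.140). For MES embryos spra passed without control array 1 at 24 hpf (limma adjusted p = 0.0233) and without control array 3 at 48 hpf (0.0418). Of 37105 features, 3374 and 6260 passed in these fits. The second xanthophore gene, mycbp2, was at −0.53 and −0.43. How many of all features were negative was not counted, and all these differences share the same control arrays.

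Nor did genes of iridophores or of purine metabolism pass at 48 hpf. The purine nucleoside phosphorylase genes pnp4b and pnp5b and the GMP synthetase gene gmps were all negative for both particles (medians −0.28 for MES and −0.35 for TMAT embryos). Among them pnp4b was dim at 48 hpf, at 2.69 to 4.41 times the random probes of the same array. Of 10 measured purine genes, with gart and again gmps included, 7 were negative for each particle. Their medians were −0.24 and −0.18, against −0.14 and −0.15 over all features. The adenosine deaminase gene ada was at −0.26 for MES and −1.35 ± 0.41 for TMAT embryos (SE, limma adjusted p = 0.107 for TMAT). Its TMAT difference passed without control array 3 (limma adjusted p = 0.0181), as did 6310 of 37105 features. Apart from ada and gart the values lay between −0.71 (adss2) and 0.28 (prpsap1) for MES and between −0.45 (adss2) and 0.52 (aprt) for TMAT embryos. Of 8 measured genes of melanosome biogenesis, which encode sorting and trafficking proteins, 7 were negative for both particles and none passed (medians −0.17 and −0.24), from atp7a, a copper transporter gene (−1.10 and −1.18), to vps33b (0.08 and 0.58). How many of all features were negative was not counted, and the differences in these lists share the same control arrays.

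**Figure D4:**
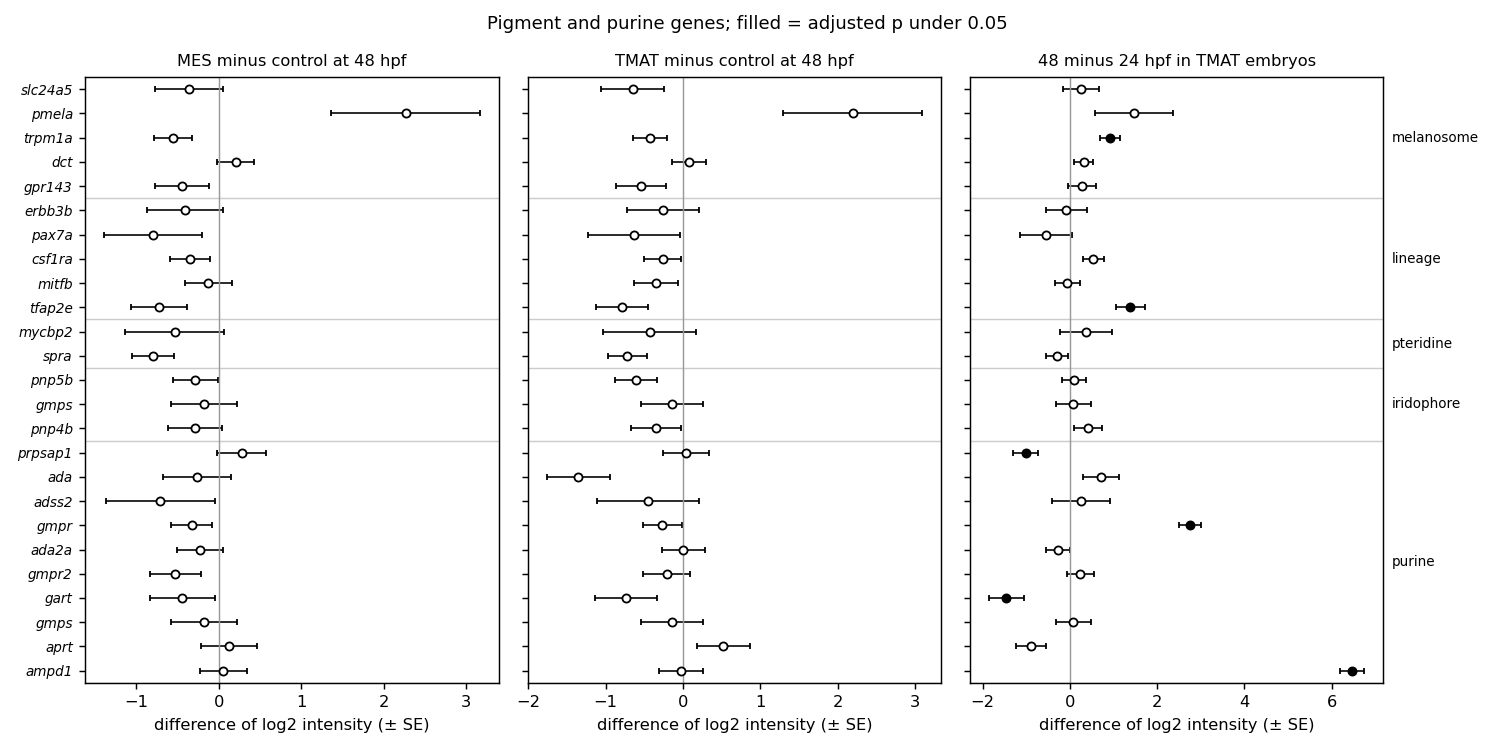
Differences of log2 intensity (horizontal axis, ± SE from limma) of the measured pigment and purine genes (vertical axis, by list) for MES and TMAT embryos against controls at 48 hpf and between the ages in TMAT embryos. Filled points had an adjusted p under 0.05: 0 of the genes for either particle, and trpm1a, tfap2e, prpsap1, gmpr, gart and ampd1 between the ages. The pmela point lies apart from the other melanosome genes in both particle panels.

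Between the ages in TMAT embryos, single pigment genes other than gart passed. Of the 5 melanosome genes trpm1a rose by 0.92 ± 0.22 (SE, limma adjusted p = 0.00979), and all 5 values were positive (median 0.32, against −0.03 over all features). Over all features 7.9% were called higher in this comparison, so that 1 call among 5 genes is near the background. Of the 5 lineage genes tfap2e, needed with its relative tfap2a for melanophore development, rose by 1.38 ± 0.34 (SE, limma adjusted p = 0.00956), which was lost without TMAT array 2 at 48 hpf (0.0548). None of the 2 xanthophore and 3 iridophore genes passed, nor did any of the 8 biogenesis genes.

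Of the 10 purine genes 2 rose and 2 fell between the ages in TMAT embryos, where 7.9% of all features were called higher and 7.55% lower. Besides gart, prpsap1, whose product binds the enzyme that makes the starting sugar phosphate, fell by 1.01 ± 0.30 (SE, limma adjusted p = 0.0275). That call was lost without TMAT arrays 2 or 3 at 24 hpf and without TMAT arrays 1 or 3 at 48 hpf (adjusted p from 0.0507 to 0.121). The GMP reductase gene gmpr rose by 2.76 ± 0.25 (adjusted p = 1.77e-06, limma) and the muscle AMP deaminase gene ampd1 by 6.46 ± 0.28 (adjusted p = 1.17e-09, limma). In TMAT embryos of 24 hpf ampd1 was dim, at 3.38 to 4.59 times the random probes, so the size of its rise is uncertain. The salvage enzyme gene aprt was at −0.88 ± 0.34 (adjusted p = 0.103, limma), and gmps at 0.08 ± 0.40.

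Markers of other cells that share these genes moved between the ages as well. Dividing cells use gart, and of 4 measured cell cycle genes ube2c (fell by 1.09) and chaf1a (fell by 1.45) passed in TMAT embryos, against 7.55% of all features called lower, with all 4 values negative (median −1.20). Their summed intensity was 73466 to 88628 at 48 hpf and 122103 to 142555 at 24 hpf in TMAT embryos. At 48 hpf it was 82187 to 86354 in MES embryos and 76026 to 84981 in controls, and none of the 4 passed for either particle (medians 0.06 for MES and −0.02 for TMAT embryos). Their part in the gart values was not tested.

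The eye holds pigmented cells too. The gene rgra, an opsin-like gene of the retinal pigment epithelium, was the 1 measured gene of 22 listed for that tissue. It lay between 3143 and 3393 in MES, 3067 and 3700 in TMAT and 3525 and 5582 in control embryos at 48 hpf. Its difference was −0.54 ± 0.24 for MES and −0.46 ± 0.24 for TMAT embryos (SE, limma adjusted p = 0.179 and 0.277). For MES embryos it passed without control array 3 (limma adjusted p = 0.0446), as did 6260 of 37105 features. Of 5 photoreceptor genes 4 rose between the ages in TMAT embryos, against 7.9% of all features called higher: rs1a by 4.80, sagb by 3.31, saga by 1.63 and pde6hb by 1.34, the call of pde6hb being lost without TMAT array 3 of either age (0.0807 and 0.0722). None of the 5 passed for either particle at 48 hpf, where their summed intensity was 15292 to 19022 in MES, 13425 to 19078 in TMAT and 14631 to 18395 in control embryos. In TMAT embryos of 24 hpf rs1a, sagb and saga were dim, at 2.80 to 3.94, 2.32 to 3.14 and 3.21 to 3.36 times the random probes. The sizes of their rises are uncertain for that reason. No sample separates melanophores from the pigment epithelium, so which of them gave the pmela and slc24a5 signal was not tested.

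The named genes whose log2 intensities most resembled those of each pigment gene over the 18 arrays were also listed. For pmela these were rab14l (r = 0.88), kat5b (0.85), nap1l4b (0.85), septin7a (0.85) and bace2 (0.85), a protease gene. For slc24a5 they were srebf2 and acap3b (0.95 each), ptprub and capn12 (0.93 each) and tgfb2 (0.92). For gart they were haus3 (0.97), rbfox1l (0.96), bag3 and scube2 (0.95 each) and slc30a1b (0.94). None of the other pigment or purine genes listed above was among them. The lists do not hold every gene that acts in pigment cells, and bace2 was in none of them. These correlations describe arrays that share age, exposure and the outlying controls.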

How the data were processed

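RNA of 18 pools of whole zebrafish embryos was hybridised to 1-colour NimbleGen arrays. For every array the authors deposited a table of features, each with its linear intensity and a count of its probes. The submitters' processing notes name RMA, and its version, the genome build and whether both ages were normalized together are not given in the sources used here. A combined table was also deposited, of whose 18 columns 2 equalled the table of the sample they are labelled with (tolerance 0.001) and 16 that of another sample. The per-array tables were used with their own labels, and the combined table was an alternative. Of the 18 columns, 10 equalled the table of a sample of the labelled age. With the per-array labels ampd1, a purine gene named above, lay between 200 and 507 at 24 hpf and between 26295 and 36399 at 48 hpf. For this gene the per-array labels thus keep the ages apart, and those of the combined table mix them. Within an age the match does not say which labelling is right. Between the ages in TMAT embryos 5733 features passed with the per-array labels and 0 with those of the combined table (limma). Samples were grouped by their titles.

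The log2 of each intensity was fitted, without pseudocount, filter or further scaling, with limma 3.58.1 in R 4.3.3, using 1 mean per group over all 37105 features (12 residual and 3.85 prior degrees of freedom). Contrasts were two-sided, and within each the Benjamini-Hochberg adjustment covered the whole table. The number of arrays limits the precision. Features were named through RefSeq accessions (2659 features with a symbol, 2467 with an informative one), with no position used. The fit was tested on simulated data. Named genes are the 3 members, the measured members of 9 lists, and the 5 informative genes most correlated with each member. Members, lists and rule were chosen with earlier results of these data known. The replicate numbers do not pair samples in the labels, and 27 alternatives were run. Sequences were not analysed here.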

Additional observations from a re-analysis of the deposited data

Results flagged for a closer look

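In 3 cases every exposed array lay on one side of the control mean at 24 hpf and on the other side at 48 hpf. The change of the difference from controls was −0.99 for slc24a5 in MES embryos, −1.13 for gart in MES embryos and −1.11 for gart in TMAT embryos (log2 scale, 48 hpf minus 24 hpf). These changes were not tested, since its 24 hpf part is the comparison by which the genes were chosen, or shares its controls. Control array 1 at 24 hpf was the lowest control for all 3 genes, and without it the 24 hpf differences were 0.21, 0.04 and −0.27. For gart in TMAT embryos the mean difference then had the same sign at both ages. In MES embryos 1 array of 24 hpf lay below both remaining controls for each gene. For slc24a5 it was array 3 (2141, against 2860 and 2290), and for gart array 2 (20081, against 24285 and 21577). None of the 3 cases therefore met the rule without control array 1. The share of all features that met this rule was not counted.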

How the results depend on the processing

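The results rest on 3 arrays a group, and control arrays 2 at 48 hpf and 1 at 24 hpf widen the spread of pmela. Leaving out each array in turn, pmela ranged from 1.44 to 3.21 for MES and from 1.36 to 3.14 for TMAT against controls at 48 hpf, from −0.24 to 0.0675 for TMAT minus MES, from 0.89 to 3.08 and from 0.64 to 2.83 at 24 hpf, and from −0.0815 to 2.11 between the ages in controls. For slc24a5 TMAT minus MES ranged from −0.55 to 0.0338 and the age difference in TMAT embryos from −0.0278 to 0.57. For gart the age difference ranged from −1.66 to −1.32 in TMAT embryos and from −0.998 to 0.0219 in controls, and the 24 hpf differences from 0.0423 to 1.06 (MES) and from −0.27 to 0.75 (TMAT). Features called ranged from 0 to 6260 (MES at 48 hpf, 2138 with all arrays), from 0 to 6310 (TMAT at 48 hpf, 0 with all arrays) and from 3708 to 7460 (ages in TMAT embryos, 5733 with all arrays).

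Without the least correlated control of each age, 3 features passed for MES at 48 hpf and 8887 between the ages in TMAT embryos, pmela passed there at 1.47, the 24 hpf values were 0.89 and 0.64 for pmela and 0.0423 and −0.27 for gart, and the control age differences were 0.83 for slc24a5 and −1.19 for gart. With only the groups compared, 0 features passed for MES at 48 hpf (2138 with all groups), and pmela passed between the ages in TMAT embryos at 1.47.

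With array weights, whose estimation stopped before converging, 24922 (MES) and 20401 (TMAT) features passed at 48 hpf, 8 for TMAT minus MES and 16408 between the ages in TMAT embryos. In that fit pmela passed at 2.65 (MES), 2.46 (TMAT) and 1.54 (age in TMAT), slc24a5 at −0.50 and −0.78 and gart at −0.26 and −0.50 at 48 hpf, while pmela was at 0.64 and 0.56 at 24 hpf and −0.35 between the ages in controls, and gart at −1.03 there.

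The labels do not pair samples by replicate number. Deviations from the group mean correlated from −0.731 to 0.504 between same-numbered arrays of 1 age. Between other-numbered arrays of 1 age they correlated from −0.732 to 0.759. With 3 arrays a group these ranges cannot show whether same-numbered arrays shared a clutch. With the replicate number as a block 1385 features passed for MES at 48 hpf, and no call of the 3 genes changed.

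In the combined table, with columns taken as labelled, 0 features passed for MES at 48 hpf and 0 between the ages in TMAT embryos. There pmela was at −0.82 (MES, 48 hpf), −0.14 (TMAT, 48 hpf), 0.68 (TMAT minus MES) and 3.42 (age, controls), gart at 0.15 (MES, 48 hpf), −0.76 (age, TMAT) and −0.16 (age, MES), and slc24a5 at 0.0225 (TMAT, 48 hpf), 0.13 (TMAT minus MES), −0.35 (age, TMAT), 0.17 (age, controls) and −0.37 (age, MES). For MES and TMAT embryos at 48 hpf dct was at −0.30 and −0.19 and spra at 0.22 and 0.17, and rgra was at 0.0790 for TMAT. None of the age calls named for trpm1a, tfap2e, prpsap1, gmpr, ampd1, the photoreceptor genes or the cell cycle genes passed there. Most columns of that table equal the per-array table of another sample, and only 10 of its 18 columns that of a sample of the labelled age. Apart from the array left out or the table used, the cause of these shifts was not tested.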
